A study of Canis lupus familiaris with 2 samples.

Results

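The genes described here code for secreted WNT antagonists and matrix proteins of Müller glia, the radial glia that span the retina. They were 7 of the 15224 gene names listed for both dogs, namely *SFRP1*, *SFRP2*, *SFRP5*, *DKK3*, *MFAP2*, *MFAP5* and *OTOS*, and each was listed in both. They were chosen by their levels in Müller glia in these same data, so that their Müller levels are a description and were not tested. The data go against the label for *SFRP5*, which had 4 UMIs in the Müller glia of dog N350 and 0 UMIs in those of dog N354.

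Single cells were profiled from the neuroretina of 2 normal or wild-type male dogs, N350 and N354, both 40 weeks old, as 1 library per dog. Punches of neuroretina were treated with trypsin, dissociated with a kit made for postnatal neurons and run on a droplet platform that counts the 3′ ends of transcripts. The data held 8900 cells and 24030707 UMIs for N350 and 4392 cells and 9711202 UMIs for N354, with 6 cell barcodes in common. Both dogs were normal, so the comparisons below are between cell classes, and a difference between the dogs cannot be told apart from a difference between the gene annotations used for their libraries.

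*SFRP1*, *SFRP2* and *SFRP5* code for secreted Frizzled-related proteins, whose cysteine-rich domain resembles the WNT-binding part of the Frizzled receptors and which can hold WNT ligands away from them. *DKK3* belongs to the Dickkopf family, whose other members block the WNT co-receptors, although *DKK3* itself is an atypical member that does not bind them in the same way. *MFAP2* and *MFAP5* are small glycoproteins of fibrillin microfibrils, and *OTOS* codes for otospiralin, a small secreted protein known from the fibrocytes of the cochlea. Müller glia support retinal neurons, recycle glutamate and contribute to the basement membrane at the inner surface of the retina.

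A cell was placed in a class by its raw UMIs of marker genes that did not include any of the 7 genes, and a class name below means the cells that passed that gate. Müller glia were gated on *RLBP1*, *GLUL*, *SLC1A3*, *AQP4* and *RGR* (at least 10 UMIs of them, from at least 3 of the genes and at 50 or more per 10000), which gave 1058 cells in N350 and 481 in N354, with a median of 6710.5 and 6566 UMIs per cell. They made up 11.9% and 11.0% of the cells and 32.2% and 34.1% of all UMIs. Markers held out of the gate were higher in these cells than in every neuronal class, 8 of 8 in N350 and 7 of 7 in N354, but only 3 and 4 of them were highest in Müller glia. *CLU*, *KCNJ10* and *LHX2* were higher in the astrocytes of both dogs, and *SOX9* and *TTYH1* in those of N350. The summed level of the rod markers in them was 17.1 and 14.6 UMIs per 10000, and that of the astrocyte markers 0.428 and 0.142. Cells that passed no gate made up 22.3% of N350 and 8.41% of N354, and cells that passed more than 1 gate (1.42% and 1.19%) were left out as possible doublets.

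Counts were pooled by class within a dog, and a level gives how many of 10000 pooled UMIs came from the gene. Each transcript is counted at 1 end, so the levels were not divided by transcript length, and levels of different genes are compared on this scale of molecules only. Intervals are exact Poisson 95% intervals for a level and exact binomial 95% intervals for a share or a ratio, and all of them cover counting error only.

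*SFRP2* was the most abundant of the 7 genes. Its level in Müller glia was 442 UMIs per 10000 in N350 and 424 in N354 (433 ± 12.7, SD, n = 2 dogs), which is 4.42% and 4.24% of all UMIs of these cells. It ranked first among all genes in the Müller glia of N350, ahead of *RBP4* (436), a retinol carrier, and second in N354, where *RBP4* stood at 492. The level of *SFRP2* thus differed less between the dogs than the levels of *OTOS* or *DKK3* did. Of all *SFRP2* UMIs, 89.7% in N350 and 92.6% in N354 lay in the gated Müller glia. The next highest class was the astrocytes, at 18.7 and 10.3 UMIs per 10000, and rods held 12.8 and 4.45.

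*SFRP1* was the second secreted Frizzled-related protein with a high level. Its level in Müller glia was 35.5 and 31.5 UMIs per 10000 (33.5 ± 2.84, SD, n = 2), and 89.6% and 91.1% of its UMIs lay in these cells. The astrocytes held 6.83 and 4.04 UMIs per 10000 and the rods 0.760 and 0.297. The Müller level of *SFRP1* was 5.20 times that of the astrocytes in N350 (interval 4.55 to 5.96) and 7.79 times in N354 (6.05 to 10.2), against 46.7 and 106 times that of the rods.

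**Figure D1:**
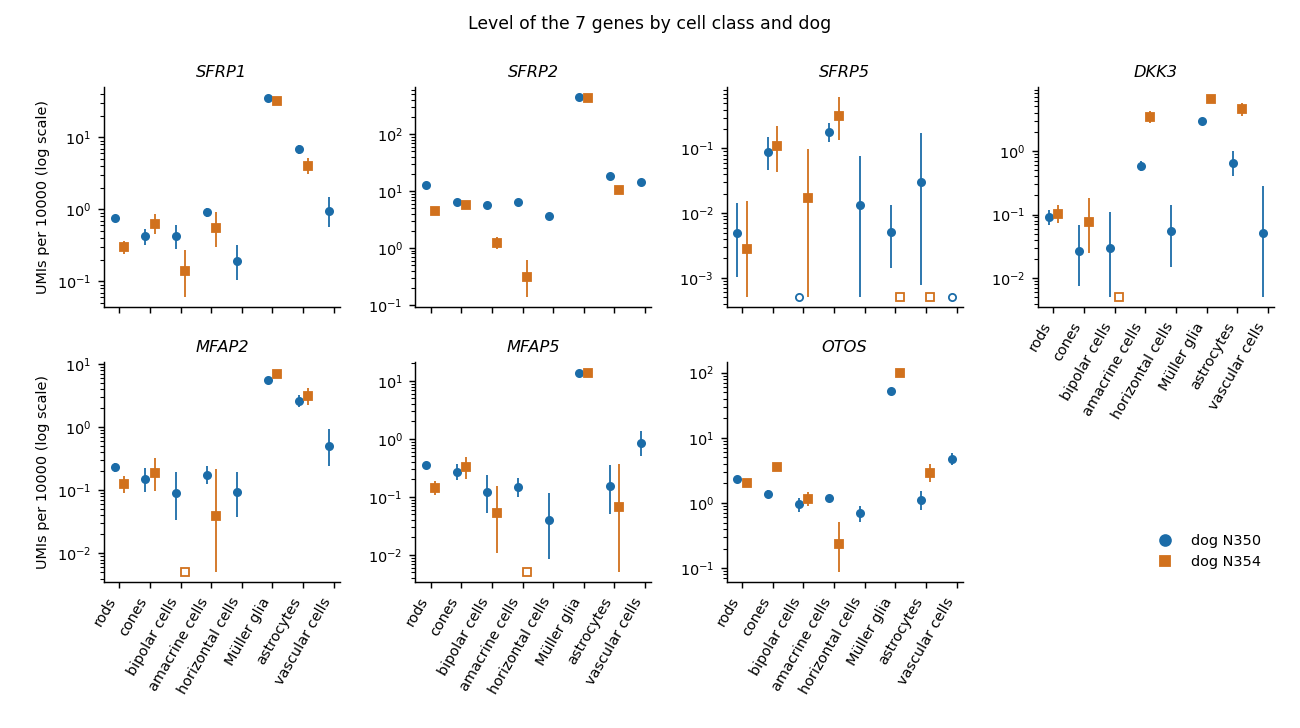
Level of each gene in UMIs per 10000 (log scale, a different range in each panel) by cell class, for every class with at least 20 cells in a dog. Circles are dog N350 and squares dog N354, bars are exact Poisson 95% intervals cut at the lowest level drawn, and an open symbol at the bottom marks a class with 0 UMIs. In 6 panels the Müller glia stand highest in both dogs, and in the *SFRP5* panel the amacrine cells do.

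*SFRP5* had a different pattern. All cells together held 66 *SFRP5* UMIs in 52 cells of N350 and 19 in 14 cells of N354. Of these, 38 (57.6%) and 8 (42.1%) lay in amacrine cells, the inhibitory interneurons of the inner retina, and 13 (19.7%) and 7 (36.8%) lay in cones. The level in amacrine cells was 0.181 UMIs per 10000 in N350 and 0.313 in N354, and in cones it was 0.0884 and 0.108. Rods held 3 and 1 UMIs, and the 0 UMIs in the Müller glia of N354 allow a level of up to 0.0091. Most *SFRP5* UMIs thus lay in amacrine cells and cones in both dogs, and the counting intervals of these classes overlapped within each dog. Within the amacrine class, cells with UMIs of the glycine transporter gene *SLC6A9* and none of *GAD1* or *GAD2* held 23 *SFRP5* UMIs in 93 cells of N350 (0.425 per 10000) and 6 in 5 cells of N354 (2.68). Cells with *GAD1* or *GAD2*, the genes of GABA synthesis, and no *SLC6A9* held 9 in 117 cells (0.0756) and 2 in 24 cells (0.0940). The *SLC6A9* cells were higher in both dogs, with intervals that did not overlap in either (0.269 to 0.637 against 0.0346 to 0.144 in N350, and 0.985 to 5.84 against 0.0114 to 0.340 in N354), though the values of N354 rest on very few cells. The UMIs lay in 14 of the 93 *SLC6A9* cells and 7 of the 117 *GAD1* or *GAD2* cells of N350. In N354 they lay in 2 of the 5 and 2 of the 24.

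*DKK3* had the lowest Müller level of the other 6 genes, at 2.93 UMIs per 10000 in N350 and 6.66 in N354 (4.80 ± 2.64, SD, n = 2). Its Müller share of UMIs was 82.7% and 83.1%. Unlike the SFRP genes with high levels, *DKK3* was also well above the rods in amacrine cells, at 0.585 and 3.40 against 0.0920 and 0.104. Those amacrine UMIs were spread over cells, with 8.94% of them in the 3 highest cells of N350 and 26.4% in those of N354. Amacrine cells with *GAD1* or *GAD2* only held 0.706 and 3.71 *DKK3* UMIs per 10000, and those with *SLC6A9* only held 0.166 and 0.894. The order was the reverse of that for *SFRP5*, and the intervals overlapped in N354 (2.94 to 4.63 against 0.108 to 3.23) and did not in N350 (0.563 to 0.874 against 0.0760 to 0.316).

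Within Müller glia *DKK3* had the largest ratio between the dogs of the 6 genes. The level in N354 was 2.27 times that in N350 in Müller glia (2.14 to 2.41), 5.82 times in amacrine cells (4.37 to 7.72) and 6.99 times in astrocytes (4.23 to 12), while the rods gave 1.13 (0.722 to 1.73). Outside Müller glia other genes differed as much or more, such as *SFRP2* in amacrine cells, with a ratio of 0.0495 (0.0213 to 0.0978). That ratio rests on 8 UMIs in N354, and 63.9% of the amacrine *SFRP2* UMIs of N350 lay in the 3 highest cells. Of the 3267 genes with at least 100 UMIs in the Müller glia of both dogs, 12.6% were at least 2-fold higher in N354 and 8.48% at least 2-fold lower, with a median ratio of 1.19. With 1 dog on each side there is no replicate check of such a ratio, and the part of the annotation in it was not tested.

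Of the microfibril genes, *MFAP5* had the higher Müller level, 13.4 UMIs per 10000 in N350 and 13.6 in N354 (13.5 ± 0.140, SD, n = 2). It was near that level in no other class, since the next highest were the vascular cells of N350 (0.860, from 17 UMIs) and the cones of N354 (0.323). *MFAP2* stood at 5.56 and 7.03 in Müller glia (6.29 ± 1.04, SD, n = 2). In contrast to *MFAP5*, its level in astrocytes was 2.59 and 3.10, so that the Müller level was only 2.15 times (1.73 to 2.70) and 2.27 times (1.69 to 3.11) the astrocyte level. The share of UMIs in Müller glia was 89.5% and 92.1% for *MFAP5* and 82.9% and 88.3% for *MFAP2*.

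*OTOS* was the second most abundant of the 7 genes in Müller glia, with 51.8 UMIs per 10000 in N350 and 99.9 in N354 (75.8 ± 34.0, SD, n = 2). It ranked 14th among all genes in the Müller glia of N350 and ninth in those of N354. Its level in N354 was 1.93 times that in N350 (1.90 to 1.96), and the same ratio was 2.58 in cones (2.12 to 3.13), 2.62 in astrocytes (1.64 to 4.19), 0.872 in rods (0.797 to 0.954) and 0.198 in amacrine cells (0.0721 to 0.438). In bipolar cells it was 1.23 (0.858 to 1.76). The ratio was thus above 1 in Müller glia, cones and astrocytes and below 1 in rods and amacrine cells. The amacrine value rests on 6 UMIs in N354, and 45.8% of the 249 UMIs in N350 lay in 3 of 276 cells. The vascular cells of N350 (4.81) and the cones of N354 (3.53) came next, and 83.2% and 89.0% of *OTOS* UMIs lay in Müller glia.

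By mean level in Müller glia the order was *SFRP2*, *OTOS*, *SFRP1*, *MFAP5*, *MFAP2* and *DKK3*, with *SFRP5* last. *OTOS* was above *SFRP1* in both dogs. *MFAP2* was above *DKK3* within each dog (5.56 against 2.93 in N350, and 7.03 against 6.66 in N354), while *DKK3* in N354 was higher than *MFAP2* in N350. All 7 genes together took 551 UMIs per 10000 of the Müller glia of N350 and 582 of those of N354.

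Most Müller glia held UMIs of all 6 genes other than *SFRP5*. At least 1 UMI of all 6 was present in 64.7% of the 1058 cells of N350 and 82.3% of the 481 cells of N354, and no cell had fewer than 2 of them in N350 or fewer than 3 in N354. Because deeper cells hold UMIs of any gene more often, the 898 and 422 cells with at least 2000 UMIs were also thinned to that depth. *SFRP2* then had a UMI in 100% of the cells of both dogs, *OTOS* in 99.5% and 100%, *SFRP1* in 98.2% and 99.3%, *MFAP5* in 89.9% and 91.6%, *MFAP2* in 65.5% and 73.3%, and *DKK3* in 41.5% and 70.8%. For comparison, a UMI of *SFRP2* at a depth of 1000 UMIs was found in 37.4% and 16.0% of rods. A UMI of *DKK3* was found in 0.988% and 0.823% of them. At the same depth of 1000 UMIs the Müller shares were 99.98% and 99.99% for *SFRP2* and 23.3% and 46.9% for *DKK3*.

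Co-detection stayed close to what the single shares give when multiplied. Among the 10 pairs of *SFRP1*, *DKK3*, *MFAP2*, *MFAP5* and *OTOS*, the share of thinned cells with both genes was 0.9985 to 1.025 times the product of the single shares in N350 (median 1.001) and 1 to 1.008 times in N354 (median 1.002). The pair farthest from 1 in N350 was *DKK3* with *MFAP2*, which were found together in 27.9% of cells against a product of 27.2%. In the few cells without an *SFRP1* UMI, *DKK3* was found in 21.4% of N350 and 46.7% of N354, against 41.9% and 71.0% in cells with one. For *MFAP5* these shares were 78.2% and 69.0% against 90.1% and 91.8%, and for *MFAP2* 61.5% and 53.0% against 65.6% and 73.4%. For *OTOS* they were 99.57% and 100% against 99.54% and 100%. Genes that are found in nearly every cell leave little room for such a ratio to move, so the amounts were compared as well.

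**Figure D2:**
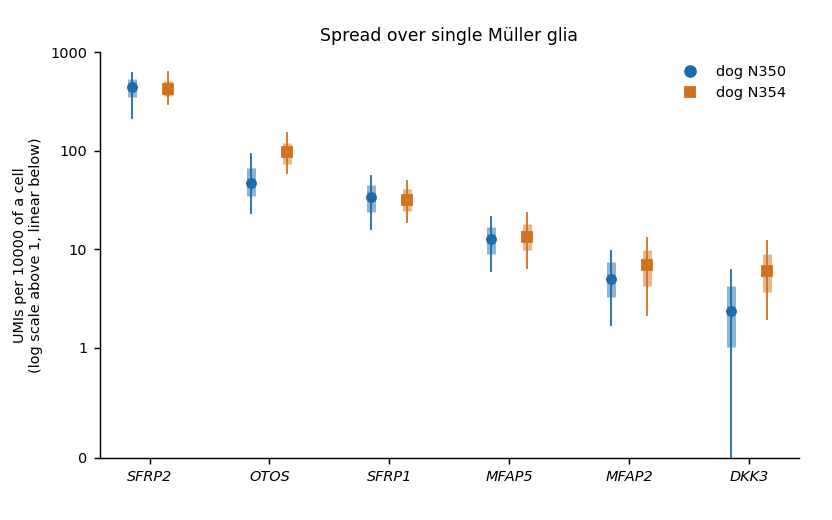
Level of 6 genes in single Müller glia with at least 2000 UMIs (898 cells of dog N350, circles, and 422 of dog N354, squares), in UMIs per 10000 of the cell on a scale that is logarithmic above 1 and linear below. Symbols are medians, thick bars span the 25th to 75th percentile and thin bars the 10th to 90th. *SFRP2* lies above the other genes in both dogs, and the *DKK3* bar of N350 reaches 0.

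Among the genes other than *SFRP5*, *SFRP2* had the narrowest spread over single Müller glia from the 10th to the 90th percentile. Its single-cell levels ran from 17.6 to 1557 UMIs per 10000 in N350 and from 24.3 to 1082 in N354. The 10th, 50th and 90th percentiles of its level were 213, 438 and 614 UMIs per 10000 in N350 and 298, 420 and 629 in N354, a spread of 2.88-fold and 2.11-fold. *OTOS* had percentiles of 23.6, 47.5 and 92.8 in N350 and 59.8, 97.1 and 152 in N354. The spread of the lower genes was wider, for example 5.58-fold and 6.01-fold for *MFAP2*, where counting error is also larger.

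**Figure D3:**
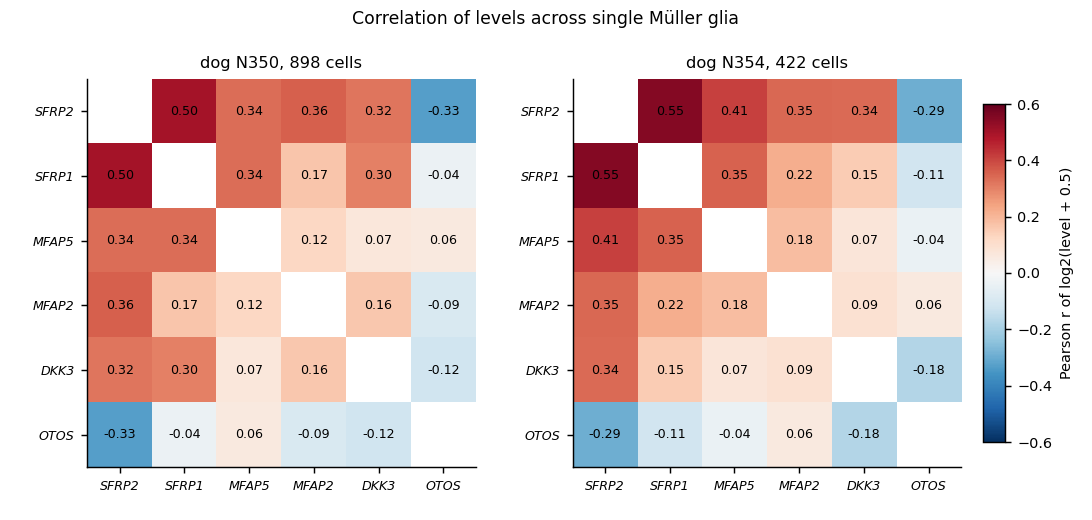
Pearson r of log2(level + 0.5) for each pair of 6 genes over single Müller glia with at least 2000 UMIs, 898 cells of dog N350 on the left and 422 of dog N354 on the right. Red is positive and blue negative, *SFRP1* with *SFRP2* has the highest r in both dogs, and *SFRP2* with *OTOS* has the lowest.

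The levels of *SFRP1* and *SFRP2* went together over single Müller glia, with r = 0.501 over 898 cells of N350 and 0.55 over 422 cells of N354. *SFRP2* also had a positive r with *MFAP5* (0.336 and 0.41), *MFAP2* (0.358 and 0.346) and *DKK3* (0.319 and 0.34). *OTOS* stood apart, with r = -0.332 and -0.293 against *SFRP2*. These cells share a library and a depth range, and cells of 1 dog are not replicates, so the values are a description. The share of mitochondrial UMIs of a cell had r = -0.479 and -0.433 with *SFRP2* and 0.238 and 0.156 with *OTOS*, and its part in the relation was not tested. In cells divided into 3 equal sets by their *SFRP2* level, the summed *OTOS* level was 58.2, 51.5 and 46.7 UMIs per 10000 from the lowest to the highest set in N350 and 110, 95.2 and 91.3 in N354. The median mitochondrial share over the same sets was 7.78%, 6.22% and 5.56% in N350 and 10.9%, 9.83% and 8.76% in N354. The *SFRP1* level over these sets was 30.7, 35.7 and 40.9 in N350 and 28.2, 31.2 and 37.1 in N354. The level of *OTOS* was thus lowest in the set with the highest *SFRP2*, by less than the difference in *OTOS* between the dogs. The sets were cut by *SFRP2* only, and over single cells *OTOS* had r = -0.035 and -0.113 with *SFRP1*.

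Cells at the edge of the Müller gate had a lower level of *SFRP2* and a higher level of *OTOS* than all gated Müller glia. The 201 cells of N350 and 49 cells of N354 just inside the gate held 252 and 228 *SFRP2* UMIs per 10000, and the 334 and 104 cells just outside it held 177 and 208. The *OTOS* level was 61.8 and 116 just inside and 57.3 and 113 just outside, against 51.8 and 99.9 in all gated Müller glia. The classes are therefore cut from a range on this side, and the values outside are given for the cells that the gate excluded.

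In rods the ratios of *OTOS* and *MFAP2* to *SFRP2* were higher than in Müller glia, and that of *SFRP1* was lower in N350. For every 100 *SFRP2* UMIs, Müller glia held 8.04 and 7.43 *SFRP1* UMIs, and rods held 5.96 (5.42 to 6.55) and 6.66 (5.42 to 8.11). *MFAP5* gave 3.04 and 3.21 per 100 in Müller glia and 2.75 (2.39 to 3.16) and 3.21 (2.38 to 4.24) in rods. *MFAP2* gave 1.26 and 1.66 per 100 in Müller glia and 1.80 (1.51 to 2.13) and 2.77 (2.001 to 3.73) in rods. *DKK3* gave 0.664 and 1.57 per 100 in Müller glia and 0.721 (0.544 to 0.937) and 2.33 (1.63 to 3.22) in rods. The intervals in rods thus held the Müller ratio for *MFAP5* in both dogs, for *DKK3* in N350 only and for *SFRP1* in N354 only. The largest shift was that of *OTOS*, with 11.7 and 23.6 per 100 in Müller glia against 18.5 (17.4 to 19.5) and 46.2 (42.3 to 50.5) in rods. The level of a gene in rods was between 0.941% and 4.55% of its Müller level over the 6 genes and both dogs, and that of the Müller marker *GLUL* was 3.10% and 1.64%. In droplet data RNA set free from broken cells gives UMIs in cells that do not make it, and its part in the levels of the neurons was not tested.

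**Figure D4:**
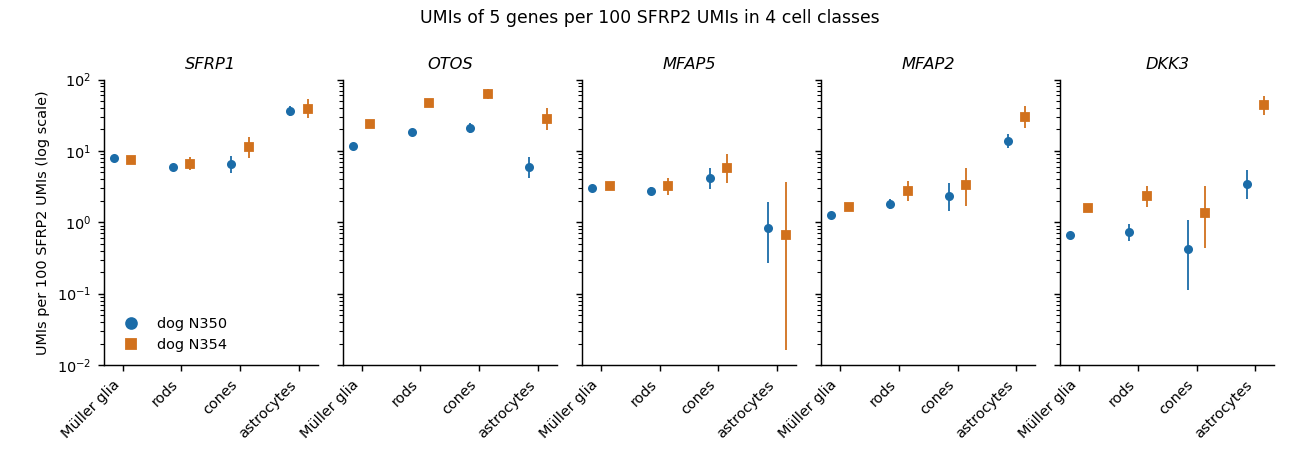
UMIs of 5 genes for every 100 *SFRP2* UMIs (log scale) in Müller glia, rods, cones and astrocytes, with circles for dog N350, squares for dog N354 and bars for exact binomial 95% intervals. In rods *SFRP1* lies below its Müller value in N350, and in astrocytes *SFRP1*, *MFAP2* and *DKK3* lie above theirs and *MFAP5* below, with an interval in N354 that includes its Müller value.

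The levels in neurons were then compared with each other in an edgeR quasi-likelihood test on the summed UMIs of 14 dog-and-class sums, with the dog as a block and Benjamini-Hochberg adjustment over 12056 genes. The p-values of this fit rest on the spread between class sums of 2 dogs, with 5 residual degrees of freedom. In edgeR the spread of a gene is moderated by that of the other genes, so small p-values do not stand for many animals. The sums of horizontal and vascular cells came from N350 only and have no replicate. In inner retinal neurons (bipolar, amacrine and horizontal cells) against rods, 5 of the 7 genes were lower, 0 were higher (1 at an unadjusted p under 0.05, and 1 with DESeq2) and 2 were not called. Over all genes tested 24.2% were lower and 18.1% were higher, so that of all calls 42.9% were higher, against 52.9% with DESeq2 size factors and 56.4% with DESeq2. Rods held 12.8 and 4.45 *SFRP2* UMIs per 10000, bipolar cells 5.68 and 1.22, amacrine cells 6.32 and 0.313, and the horizontal cells of N350 3.69. The median depth was 1126 and 1021 UMIs in rods, 2782 and 2618 in bipolar cells, and 6342 and 6256 in amacrine cells. It was 13837 in the horizontal cells of N350. The 5 Müller gate markers summed to 4.63 and 2.56 UMIs per 10000 in rods and 3.50 and 1.81 in bipolar cells. They summed to 6.34 and 12.9 in amacrine cells and 0.951 in the horizontal cells of N350. The amacrine sum of N350 was mostly *GLUL* (5.79), and in N354 3 of the 5 markers had 0 UMIs in amacrine cells. *GLUL* stood at 6.31% and 10.1% of its Müller level in amacrine cells, against 3.10% and 1.64% in rods. *RLBP1*, *RGR*, *AQP4* and *SLC1A3* were each lower in amacrine cells than in rods in both dogs. The part of depth or of free RNA in these calls was not tested. The fitted log2 fold change of *SFRP2* was -1.65 ± 0.40 (SE; edgeR adjusted p = 0.00133). Each SE was taken as the size of the log2 fold change divided by the square root of the F statistic. The SE and its interval thus restate the p-value and are unreliable where the fold change is small or counts are near the floor. It was -1.87 ± 0.38 for *MFAP5* (edgeR adjusted p = 0.000189), -1.37 ± 0.33 for *OTOS* (0.0014), -1.14 ± 0.38 for *MFAP2* (0.0164) and -0.78 ± 0.30 for *SFRP1* (0.0372). *DKK3* gave 0.17 with a 95% interval of -1.22 to 1.56 (edgeR adjusted p = 0.932), so that a difference in either direction is within its error. *SFRP5* gave 2.56 (0.13 to 4.99), which did not pass the adjustment (edgeR adjusted p = 0.085). The number of lower genes fell to 3 with DESeq2 size factors and to 1 with the DESeq2 Wald test, which called *SFRP5* higher. Without the dog block 0 members were lower in edgeR (2 at an unadjusted p under 0.05), and without N354 or without N350 the direction of the 5 stayed the same. The call of *SFRP1* does not hold for each inner class, and it was made in 3 of 7 alternatives. Amacrine cells held 0.918 and 0.548 *SFRP1* UMIs per 10000, above the rods of both dogs (0.760 and 0.297). Bipolar cells (0.422 and 0.139) and the horizontal cells of N350 (0.190) were below the rods. The *SFRP2* UMIs of the amacrine cells of N350 were concentrated, with 63.9% of them in 3 of 276 cells and 671 in a single cell.

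Astrocytes differed from the mean of the neuronal classes in 4 of the 7 genes. The gate on *GFAP*, *ANXA1*, *SERPINE2* and *S100B* left 54 astrocytes in N350 and 35 in N354, in which the summed astrocyte markers reached 18.1 and 21.6 UMIs per 10000 against 0.428 and 0.142 in Müller glia. *S100B* had 0 UMIs in the astrocytes of N354. Against the mean of the neuronal classes, *SFRP1*, *SFRP2*, *DKK3* and *MFAP2* were higher and 0 were lower (0 at an unadjusted p under 0.05, and 0 with DESeq2), and over all genes tested 17.5% were higher and 12.9% lower. Of all calls in this comparison 57.5% were higher, against 67.7% with DESeq2 size factors and 71.0% with DESeq2. Without the dog block 3 of the 4 were higher, and *SFRP2* was not called (edgeR adjusted p = 0.299). The log2 fold change was 4.46 ± 0.30 for *MFAP2* (edgeR adjusted p = 1.35e-12), 4.07 ± 0.39 for *DKK3* (2.11e-09), 3.67 ± 0.24 for *SFRP1* (1.56e-12) and 1.66 ± 0.36 for *SFRP2* (0.000642). *MFAP5* gave -0.11 with an interval of -1.61 to 1.39 (edgeR adjusted p = 1) and *OTOS* 0.26 with -0.53 to 1.05 (0.703). *SFRP5* rested on 1 UMI in N350 and 0 in N354. The fold of *DKK3* is against a mean of classes, and its amacrine level was near that of the astrocytes. In N350 the astrocytes held 0.646 (0.400 to 0.988) and the amacrine cells 0.585 (0.486 to 0.698) *DKK3* UMIs per 10000. In N354 they held 4.52 (3.50 to 5.74) and 3.40 (2.73 to 4.20), so that the intervals overlapped in both dogs.

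The astrocyte levels can be read beside those of Müller glia of the same dog. The astrocytes of N350 and N354 held 46.5% and 44.1% of the Müller level of *MFAP2*, 22.0% and 67.8% of that of *DKK3*, and 19.2% and 12.8% of that of *SFRP1*. They held 4.22% and 2.43% of the level of *SFRP2*, 2.14% and 2.90% of that of *OTOS*, and 1.15% and 0.495% of that of *MFAP5*. The 5 markers of the Müller gate covered a wide range in the same cells. *GLUL* stood at 2.52% and 1.01% of its Müller level, *RGR* at 1.60% and 3.57%, *SLC1A3* at 7.83% and 12%, *RLBP1* at 29.3% and 36.6%, and *AQP4* at 204% and 156%. The 3 highest astrocytes held 38.0% of the *SFRP2* UMIs of N350 and 27.5% of those of N354, against 17.9% and 26.1% of the *MFAP2* UMIs.

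Other genes of the WNT pathway and of the matrix were read from 7 lists with 128 genes in all. The lists were chosen with earlier results of these data known, so their counts are not independent of the data. Of these, 98 were listed for both dogs with enough UMIs and were tested. *COL18A1*, *LAMA5* and *EMILIN2* were not listed for N354 and were not tested. They had 996, 71 and 1 UMIs in the Müller glia of N350. In Müller glia against the mean of the other classes, 49 of the 98 were higher, 3 were lower and 46 were not called, where 27.6% of all 12056 genes were higher and 6.46% lower. Each mean of classes here and above gives every class the same weight on the log scale. A class with 0 UMIs thus pulls it down, and a fold change can differ from what the plain levels show. With DESeq2, 33 were higher and 7 lower, against 21.2% and 12.4% of all genes with an adjusted p. Of the 98 genes, 10 had enough UMIs only through Müller glia, so that a call of higher says little of them. Among the other 88, fitted without such genes (chosen after seeing the data), 42 were higher and 3 lower, against 26.7% and 6.5% of all genes. The genes called higher that dropped out were *FZD10*, *LGR6*, *NOTUM*, *MFAP4*, *HSPG2*, *LAMB1* and *OPTC*. The median log2 fold change of all genes was 0.29, and it was 0.18 with DESeq2 size factors and -0.01 with DESeq2, so the list values are best read against it. Of all calls, 81.1% were higher, and 71.6% and 63.1% were with DESeq2 size factors and with DESeq2.

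Of the 10 WNT ligands tested, 1 was higher (1 with DESeq2) and 0 were lower (edgeR; 0 also at an unadjusted p under 0.05, and 1 with DESeq2), with a median of 0.53. That gene was *WNT5B*, at 0.112 and 0.121 UMIs per 10000 in Müller glia (4.04 ± 0.52) and 0.185 and 0.135 in astrocytes. Of the 16 receptors and co-receptors, 10 were higher (6 with DESeq2) and 0 lower (0 at an unadjusted p under 0.05, and 1 with DESeq2), with a median of 2.44. *FZD5*, a Frizzled receptor of retinal development, had the highest Müller level of the 10 by mean, at 1.12 UMIs per 10000 in N350 and 0.0485 in N354 (5.68 ± 0.29). The co-receptor gene *LRP5* stood at 0.280 and 0.503 (2.68 ± 0.26), *KREMEN1*, a receptor for Dickkopf proteins, at 0.362 and 0.258 (2.98 ± 0.29), and *RYK* at 0.336 and 0.376 (0.73 ± 0.21). The first place of *FZD5* rested on N350, since in N354 it was below *LRP5*, *KREMEN1* and *RYK*. The astrocytes held 0.923 and 0.0674 of *FZD5*, above Müller glia in N354. They held 0.369 and 0.472 of *LRP5*, above Müller glia in N350, and 0.277 and 0.0674 of *KREMEN1*. *RYK* was at 0.345 and 0.350 in rods and at 0.646 and 0.741 in astrocytes, so that its Müller level was not the highest.

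Of 14 other secreted WNT modulators and their receptors, 7 were higher (5 with DESeq2) and 1 was lower (1 with DESeq2), with a median of 2.46. *LGR4*, a receptor of R-spondins, stood at 3.56 and 3.14 UMIs per 10000 in Müller glia (4.12 ± 0.17). *FRZB*, a further secreted Frizzled-related protein, stood at 2.02 and 4.02 (4.80 ± 0.20), and *NDP*, the gene of norrin, which signals through a Frizzled receptor to retinal vessels, at 1.88 and 2.11 (3.62 ± 0.20). *SOSTDC1* followed at 0.0830 and 0.158 (2.72 ± 0.65). The astrocytes were above Müller glia in *FRZB* in both dogs (4.12 and 6.47) and in *SOSTDC1* (0.185 and 0.404). For *NDP* the amacrine cells stood at 2.15 and 1.92 and the astrocytes at 1.39 and 2.70, so that another class was above Müller glia in each dog. The Müller level of *FRZB* was below those of *SFRP1*, *SFRP2* and *DKK3* in both dogs. The lower gene was *DKKL1*, at 0.270 and 0.373 against 2.19 and 3.02 in rods (-0.66 ± 0.20).

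Of 18 genes of WNT signal transduction and WNT targets, 5 were higher (5 with DESeq2) and 1 was lower (4 with DESeq2), near the share over all genes, and the median of 0.19 was below that of all genes. *CCND1*, a cyclin and common WNT target, stood at 1.64 and 1.06 UMIs per 10000 (5.70 ± 0.26). The transcription factor genes *TCF7L2* (0.318 and 0.907; 3.93 ± 0.32), *TCF7* (0.242 and 0.0849; edgeR adjusted p = 2.91e-07) and *TCF7L1* (0.0972 and 0.179; 5.26 ± 0.59) were also higher, and the astrocytes held 0.308 and 1.69 of *TCF7L2* and 0.215 and 0.202 of *TCF7L1*. *APCDD1* was lower (-2.24 ± 0.77), at 0.00648 and 0.00606 in Müller glia, and its direction turned to 0.42 when N350 was left out. In N354 the rods held 0.0224 and the amacrine cells 0.0782, above Müller glia, while astrocytes and bipolar cells held 0.

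Of 21 microfibril and elastic fibre genes, 12 were higher (8 with DESeq2) and 0 lower (1 at an unadjusted p under 0.05, and 0 with DESeq2), with a median of 2.01. *EFEMP1*, a fibulin, stood at 7.47 and 1.71 UMIs per 10000 (5.76 ± 0.17), *TGFB2* at 1.60 and 2.12 (3.68 ± 0.19), *EFEMP2* at 1.19 and 1.12 (3.55 ± 0.22) and *LTBP3* at 0.820 and 0.0879 (2.01 ± 0.25). The astrocytes were above Müller glia in *TGFB2* (3.97 and 5.19), *EFEMP2* (1.29 and 1.55) and *LTBP3* (1.39 and 0.270). In N350 *EFEMP1* reached a level above that of *MFAP2*, and in N354 it did not. Of 17 genes of the retinal basement membrane and the matrix between photoreceptors, 12 were higher (7 with DESeq2) and 1 lower (0 with DESeq2), with a median of 2.08. *SPOCK1*, a proteoglycan gene, stood at 7.38 and 7.36 (5.40 ± 0.17), *COL2A1* at 1.68 and 2.71 (6.79 ± 0.28), *COL9A1* at 1.58 and 0.618 (8.28 ± 0.33), and *LAMA1* at 0.399 and 0.855 (4.01 ± 0.32). The level of *LAMA1* was highest in cones, at 2.09 and 2.73. *RBP3*, the photoreceptor gene of the interphotoreceptor retinoid-binding protein, was lower (-1.15 ± 0.41), and without N350 it gave 0.01. In N354 its level was still 0.0667 in Müller glia against 1.22 in rods and 2.46 in cones. The astrocytes of N354 held 0, which lowers the mean on the log scale. Of the 6 genes listed for the matrix of the inner ear, the tissue from which *OTOS* is known, 2 could be tested and both were higher, against 1 with DESeq2. *COCH*, the gene of cochlin, stood at 1.18 and 0.764 UMIs per 10000 (7.05 ± 0.38), and *TECTA* at 0.188 and 0.00303 against 0.196 and 0 in rods and 0.316 and 0 in bipolar cells (1.13 ± 0.37). In N350 *TECTA* was thus higher in bipolar cells than in Müller glia, and DESeq2 did not call it (adjusted p = 0.31). Each log2 fold change in these paragraphs is given with its SE, and the adjusted p of edgeR for the genes named ran from 1.5e-19 for *EFEMP1* to 0.0323 for *RBP3*.

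**Figure D5:**
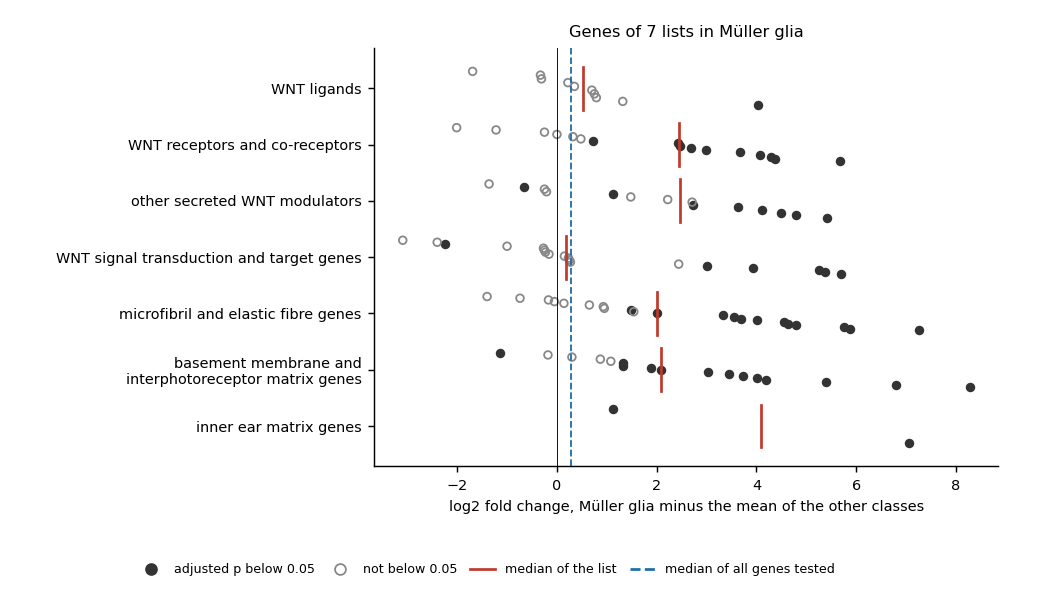
Log2 fold change in Müller glia minus the mean of the other classes for the 98 tested genes of 7 lists, with 1 point per gene. Filled points passed an adjusted p of 0.05 in the edgeR quasi-likelihood test, open points did not, red bars are list medians and the dashed line is the median of all 12056 genes (0.29). Most points of the receptor, microfibril and basement membrane lists lie to the right of the dashed line, and the points of the ligand and signal transduction lists lie on both sides.

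The genes whose pattern was most like that of each of the 7 were looked for among 9878 genes by the Pearson r of log2(level + 0.5) over the 14 sums, which share 2 libraries. The closest to *SFRP1* were *F3* (r = 0.989), *HKDC1* (0.98) and *ADAMTS19* (0.979). *SFRP2* was closest to *DAPL1* (0.939), *TNFAIP6* (0.938) and *NT5E* (0.926), and *OTOS* to *DBI* (0.979), *DAPL1* (0.975) and *C9H17orf67* (0.959). *MFAP5* was closest to *C9H17orf67* (0.992), *DIPK1C* (0.984) and *SLC14A1* (0.983). *MFAP2* was closest to *RLBP1* (0.994), which was used in the gate, *ADAMTS19* (0.989) and *SDSL* (0.984). *DKK3* was closest to *CHST9* (0.98), *KIRREL1* (0.958) and *LAMA4* (0.948), and *SFRP5* to *NSG2* (0.952), *GRM8* (0.946) and *GRIP1* (0.94). Among the members themselves, r was highest for *SFRP1* with *MFAP2* (0.972) and *OTOS* with *MFAP5* (0.966), and *SFRP5* had a negative r with every other member except *DKK3* (0.157). The values of *SFRP5* rest on 66 and 19 UMIs in all cells. Its highest levels, 0.181 and 0.313 in amacrine cells, were under the 0.5 added before the log.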

How the data were processed

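The neuroretina of 2 normal dogs was measured as 1 single-cell library each. The authors aligned the reads and made filtered matrices of UMI counts per gene and cell with Cell Ranger, version 6.0.2 by the headers of both matrices, and these deposited counts were used as they are. The genome annotation differed between the dogs (34981 and 19947 genes listed), and the names given more than once in N354 (17) were summed. The study's methods name canFam6 as the genome, which is not the assembly of the gene table used here, so no coordinates or sequences are shown.

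Cells with fewer than 200 genes were left out (5 per dog). No mitochondrial limit was set, because under a 5% limit like that of the study too few Müller glia and cones of N354 remained. With less than 5% of UMIs on MT- names they were 19 and 0. Names that start with MT- are mitochondrial genes in N354 only. Classes were gated on summed raw UMIs, number of markers found and level of markers named in both dogs. Sums of classes with at least 20 cells in a dog were tested with edgeR 4.0.16 (glmQLFit, TMM, genes with at least 10 UMIs, class and dog as terms). The dog is the block because the classes of a dog come from 1 animal, and the deviations of the classes within a dog correlated (lowest r 0.517 over 15 pairs of classes). DESeq2 was an alternative. The fit was also run on simulated data with the same gene profile in all classes, apart from genes changed in Müller glia, and no difference between dogs. That run cannot vouch for the fit where classes and dogs differ. Thinning used exact hypergeometric shares at 1000 or 2000 UMIs.

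The 7 genes and all lists were chosen with earlier results of these data known, and the gate limits were set after looking at the marker counts. Named genes are the 7, up to 4 called genes per list and direction (by mean Müller level if higher, by fold if lower), the 3 closest genes of each of the 7, and the gate markers. Alternatives were other mitochondrial limits, a doubled Müller gate, a cap on UMIs per cell, other scaling, no filter, no block and each dog left out.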

Additional observations from a re-analysis of the deposited data

Results flagged for a closer look

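The cells that passed no gate, which enter no test, held *SFRP2* at 57.5 UMIs per 10000 in N350 and 50.1 in N354. This was above the rods of the same dogs (12.8 and 4.45). The cells that passed no gate include the 334 and 104 cells just outside the Müller gate, which held 177 and 208. Their median depth was 796 and 1191 UMIs per cell.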

How the results depend on the processing

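With a dog left out, the mean Müller level ran from 2.93 to 6.66 for *DKK3* and from 51.8 to 99.9 for *OTOS*. With less than 5% of UMIs on MT- names, which left 19 Müller glia in N354, the mean level was 508.8 for *SFRP2* and 15.11 for *MFAP5*, and with at most 10% it was 446.9 and 13.99. With at most 5% on the 13 mitochondrial genes (230 and 17 Müller glia; chosen after seeing the data) it was 541.6 for *SFRP2*, 15.62 for *MFAP5* and 7.475 for *MFAP2*. Without the cells above the 95th percentile of UMIs *MFAP5* gave 13.85, and the median co-detection ratio was 1.002 at 1000 UMIs. The cause was not tested. Without the replicate block, list genes higher in Müller glia fell from 49 to 29 and lower from 3 to 0, and members lower in inner neurons from 5 to 0 (edgeR; 1 and 2 at an unadjusted p under 0.05). With DESeq2, 33 list genes were higher in Müller glia and 7 lower (receptors 6 higher against 10, microfibril genes 8 against 12, basement membrane genes 7 against 12), and 1 member was lower and 1 higher in inner neurons. With DESeq2 size factors 3 members were lower there. With a dog left out, *APCDD1* ran from -2.14 to 0.42 and *RBP3* from -1.45 to 0.01 in Müller glia, the higher value without N350. For both genes the mean of the other classes in N354 includes classes with 0 UMIs. Over all genes, dropping the block moved the calls from 3332 higher and 779 lower to 1367 and 82 in Müller glia, from 2187 and 2912 to 653 and 818 in inner neurons, and from 2105 and 1554 to 1192 and 391 in astrocytes. Lower calls in Müller glia were 1198 with DESeq2 size factors, 1407 with DESeq2 and 1425 with the classes of both dogs only (chosen after seeing the data), and lower calls in astrocytes 894 with DESeq2. The 5% limits left no residual degrees of freedom in the blocked fit, so these alternatives could not be fitted.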

Other observations

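In the cells that passed no gate, each of 5 genes was higher relative to *SFRP2* than in Müller glia. For every 100 *SFRP2* UMIs they held 8.57 (8.13 to 9.03) and 10.9 (9.76 to 12.1) *SFRP1* UMIs in N350 and N354, against 8.04 (7.94 to 8.14) and 7.43 in Müller glia, so that the intervals of N350 met. *MFAP5* gave 3.53 (3.25 to 3.82) and 3.67 (3.05 to 4.39) against 3.04 and 3.21, with an interval in N354 that includes the Müller value. *MFAP2* gave 2.49 and 3.14 against 1.26 and 1.66, and *DKK3* gave 1.06 and 4.38 against 0.664 and 1.57. *OTOS* stood at 26.8 and 55.8 per 100 against 11.7 and 23.6. These cells held 4.68% and 2.26% of all *SFRP2* UMIs and 9.92% and 5.13% of all *OTOS* UMIs.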
